A study of Homo sapiens with 7 samples.

Results

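The peaks described here are the 5-hydroxymethylcytosine (5-hmC) peaks of SK-N-BE(2) neuroblastoma cells whose midpoint lies on chromosome 6 between 26 and 33.4 Mb (hg19), a stretch that joins the large histone gene cluster to the major histocompatibility complex (MHC). Members were chosen by position alone. Over the 6 lists together they number 983 of 1873636 peaks: 146, 145, 150, 173, 185 and 184 in the lists of 0, 6, 12, 24, 48 and 72 h. Series of 6 values below keep that order of times. The stretch was divided into 5 blocks: the histone cluster (26 to 28 Mb), extended class I (28 to 29.6 Mb), class I (29.6 to 31.5 Mb), class III (31.5 to 32.2 Mb) and class II (32.2 to 33.4 Mb). The last 4 are called the MHC blocks below.

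SK-N-BE(2) is an established human neuroblastoma line, labelled here as wild type, with an amplified MYCN gene. The 0 h cells had 21% oxygen (normoxia), the others 1% oxygen (hypoxia) over 6, 12, 24, 48 or 72 h, and DNA fragments carrying 5-hmC were chemically tagged, captured and sequenced. Each time is 1 library and 1 list of enriched intervals (peaks), so replicate error is unknown for every value and any contrast of times contrasts single libraries. The only normoxic list is that of 0 h: low oxygen and time in culture cannot be told apart. The lists give positions without heights or read counts, so depth is unknown. The whole list held 352484 peaks at 72 h, against 285292 in normoxia.

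5-hmC is made from 5-methylcytosine by the TET dioxygenases, which need oxygen, and is found mostly at enhancers and over the bodies of active genes. The histone cluster holds most of the replication-dependent histone genes, which are transcribed in S phase to package newly made DNA, with many tRNA genes among them. The MHC follows: class I genes encode the molecules that show peptides to cytotoxic T cells, class II genes such as HLA-DRA encode those that show peptides to helper T cells, and class III holds complement genes such as C2 and CFB and cytokine genes of the TNF family. Neuroblastoma cells are known for low surface levels of class I molecules.

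The gene table at hand is RefSeq's for GRCh38.p14, which is not the build of the peaks. It was used for gene order alone, and no peak was assigned to a gene. In that order, 55 protein-coding histone genes lie between H2AC1 and H2BC17: 6 of the H1 linker family, 12 of H2A, 15 of H2B, 10 of H3 and 12 of H4. The same run of 240 genes holds 98 tRNA genes. Between H2BC17 and HLA-F follow 46 tRNA genes, 16 olfactory receptor genes and 11 zinc finger genes. From HLA-F to MICB, a ligand of an activating receptor of natural killer cells, 49 protein-coding genes are listed, 6 of them HLA genes. From there to NOTCH4, a receptor of the Notch pathway, come 59 protein-coding genes. From HLA-DRA to HLA-DPB1 there are 18, 13 of them HLA genes.

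Peaks were as dense as in a typical stretch of the genome in the first 1 Mb of the histone cluster, and sparse in the MHC. The histone cluster held 121, 123, 122, 140, 143 and 147 peaks in time order, which is 60.5 peaks per Mb at 0 h. The 4 MHC blocks, 5.4 Mb together, held 25, 22, 28, 33, 42 and 37 peaks in time order, or 4.63 per Mb at 0 h. The rest of chromosome 6 held 89.2 peaks per Mb at 0 h. Peaks covered 2.55% of the histone cluster, 0.170% of the MHC blocks and 4.17% of the rest of the chromosome at that time.

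**Figure D1:**
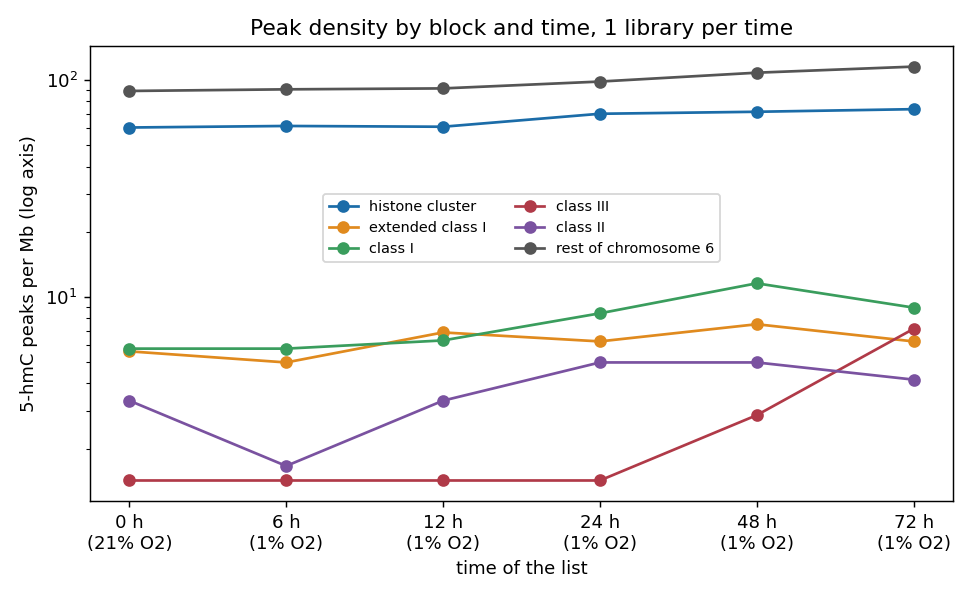
Peaks per Mb (log axis) in each block and on the rest of chromosome 6, against the time of the list, with 1 point per library. The histone cluster lies between 60.5 and 73.5 peaks per Mb, below the 89.2 to 115 of the rest of the chromosome, and every MHC block stays below 12 per Mb at every time.

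The sparse stretch ended just after 33.4 Mb. In the 1 Mb that follows the class II block, peaks numbered 250, 235, 245, 252, 258 and 276 in time order. The first 100 kb of it averaged 6.50 peaks over the 6 lists and the fourth 46.3. The 1 Mb before the histone cluster held between 144 and 176 peaks in each list. In 1 Mb bins, the mean over the lists was 104 peaks at 26 Mb, 29.2 at 27 Mb, 10.0 at 28 Mb, 2.83 at 29 Mb, 9.83 at 30 Mb, 3.83 at 31 Mb and 1.67 at 32 Mb, against 164 at 33 Mb and a median of 99.5 over the 2843 bins of the genome that hold a peak. Of those bins, 89 had as few as the 1 from 32 to 33 Mb.

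In bins of 100 kb, 32 of the 54 MHC bins and 2 of the 20 histone bins held no peak in any list. Over the genome 19.7% of 30362 such bins were without one, a share that includes assembly gaps. The longest stretches without a peak in any list ran from 28576098 to 29685692 (1110 kb, the third longest on chromosome 6), from 32624212 to 33162427 (538 kb) and from 29911702 to 30442293 (531 kb). In all, 14 such stretches were longer than 100 kb and together made up 4.75 Mb of the 7.4 Mb.

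**Figure D2:**
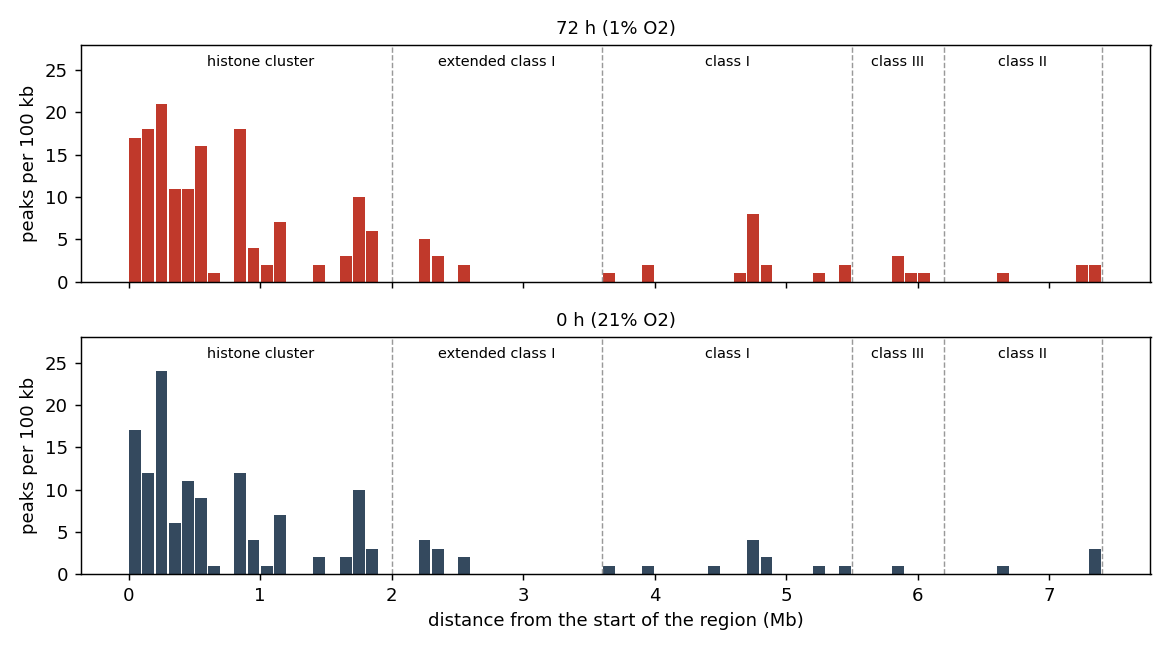
Peaks per bin of 100 kb along the region at 72 h (upper panel) and 0 h (lower panel), against the distance from its start; dashed lines mark the ends of the blocks. The histone cluster reaches 21 peaks in a bin at 72 h and 24 at 0 h, and most bins of the MHC blocks are empty in both panels.

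The lists also hold peaks on 7 alternative contigs of chromosome 6, named apd_hap1, cox_hap2, dbb_hap3, mann_hap4, mcf_hap5, qbl_hap6 and ssto_hap7. These are further reference copies of MHC sequence, so a read from a conserved part of the MHC can match several copies equally well. How such reads were treated is not given in the sources used here, and their part in the low number of peaks was not tested. The 7 contigs summed held 70, 66, 77, 84, 119 and 101 peaks in time order, more than the MHC blocks of chromosome 6 itself in each list. Taken singly, the contig with the most peaks held 15, 14, 17, 20, 26 and 20 in time order, fewer than those blocks in each list.

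Among the contigs, apd_hap1 had the fewest peaks, between 0 and 3 per list. On cox_hap2 there were 12, 14, 16, 20, 25 and 20 in time order. On mann_hap4 there were 14, 13, 16, 11, 26 and 20 in time order. The contig peaks were narrow, with a median of 293 bp at 72 h, against 261 bp in normoxia. On 6 of the 7 contigs peaks were more numerous at 48 h than in normoxia, and apd_hap1 had 3 in both.

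The first comparison over time asked whether the region gained peaks in hypoxia, and whether it did so more than the rest of the genome. It gained peaks at about the pace of the genome. At 72 h the region held 26.0% more peaks than at 0 h, against 23.6% more in the whole list. Its covered length was 80.3 kb at 72 h, against 60.1 kb at 0 h (33.8% more). Covered length was 30.9% more in the whole list and 39.2% more on the rest of chromosome 6. In the histone cluster 147 peaks at 72 h stood against 121 at 0 h, and in the MHC blocks 37 stood against 25.

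Over the 6 lists, peak number in the region rose with hours by Pearson's r = 0.912 (adjusted p = 0.0313; raw p = 0.00694 by exact two-sided permutation), while Spearman's rho = 0.886 did not pass after adjustment (adjusted p = 0.0857; raw p = 0.0333 by exact permutation). For the histone cluster r was 0.916 (adjusted p = 0.0313; raw p = 0.00417, exact permutation), with a rho of 0.943 (adjusted p = 0.0857; raw p = 0.0167, exact permutation). Covered length of the region gave r = 0.962 (adjusted p = 0.0313; raw p = 0.00278, exact permutation), and that of the histone cluster r = 0.934 (adjusted p = 0.0313; raw p = 0.00694, exact permutation). Their rho and its p were those of number in the histone cluster. Removing 48 and 72 h, the 2 times most distant from the median hour, r for number was 0.926 in the region and 0.896 in the histone cluster, over 4 lists. Benjamini-Hochberg adjustment was over the 18 relations of number, covered length and share in the region and each block. Kept to the same number of peaks per list, widest first, r for number was -0.85 in the region and -0.71 in the histone cluster, and neither passed; with any 1 list left out, none of these 4 relations passed. None of the MHC blocks taken singly passed the adjustment, with adjusted p from 0.0781 for class III to 0.420 for extended class I by Pearson's r of number.

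The share of each list that fell in the region tests whether it departed from the genome. It was 5.12, 4.95, 5.10, 5.54, 5.49 and 5.22 per 10000 peaks in time order. It did not pass the test against hours, with r = 0.459 (adjusted p = 0.420; raw p = 0.347, exact permutation) and rho = 0.60 (adjusted p = 0.311; raw p = 0.242, exact permutation). Nor did the share of the histone cluster, with r = -0.10 (p = 0.893 raw and adjusted, exact permutation) and rho = 0.03 (p = 1 raw and adjusted, exact permutation). Over the 4 lists left without those 2 times, r was 0.827 for the region and 0.727 for the histone cluster.

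Peak number at 72 h over normoxia, divided by the same ratio of the list totals, was 1.02 for the region (95% interval 0.816 to 1.28), 0.983 for the histone cluster and 1.20 for the MHC blocks (0.702 to 2.08). These intervals cover counting error only. For the MHC blocks the ratio was highest at 48 h, at 1.42 (0.847 to 2.44), and on the contigs it was likewise highest then, at 1.44 (1.06 to 1.96), against 1.17 (0.853 to 1.61) at 72 h. The 48 h values of blocks and contigs come from the same library. The contigs are copies of MHC sequence, so a locus can be counted on several of them, which their interval does not allow for. On the rest of chromosome 6 the ratio at 72 h was 1.05 (1.03 to 1.07).

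**Figure D3:**
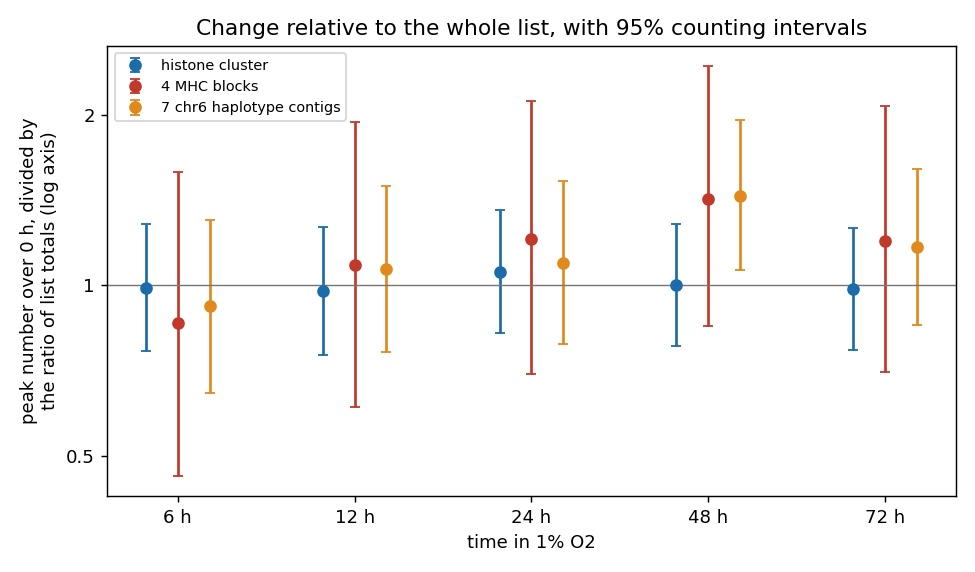
Peak number over that of 0 h, divided by the ratio of the list totals (log axis), at each hypoxia time for the histone cluster, the 4 MHC blocks and the 7 contigs; points are ratios and bars 95% counting intervals. The histone cluster stays between 0.978 and 1.06, and the interval of the contigs at 48 h is the only one that lies wholly above 1. That interval treats the peaks of the 7 contigs as independent, although the contigs are copies of MHC sequence.

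The class I block held 11, 11, 12, 16, 22 and 17 peaks in time order. Its peaks gathered in the 200 kb from 30.7 to 30.9 Mb, which held 6, 7, 7, 10, 14 and 10 of them in that order of times. Extended class I held 9, 8, 11, 10, 12 and 10 peaks in time order, all of them before 28.6 Mb. Class II held 4, 2, 4, 6, 6 and 5 in time order. Class III, although its genes are closely packed, held 1 peak in each list to 24 h, 2 at 48 h and 5 at 72 h, for a ratio of 4.05 at 72 h relative to the totals with an interval of 0.453 to 191.

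A bin of 100 kb was called, by size alone, when its mean was at least 5 peaks, its number differed from 0 h by at least 5, and its ratio to 0 h, after division by that of the totals, reached 1.5 or the inverse. Only 11 of the 74 bins of the region had such a mean, 10 of them in the histone cluster. At 72 h 0 of these 11 were called higher, where 8.66% of 18216 bins of the genome were, and 0 were called lower, where 0.554% were. With 11 bins a count of 0, taken as up to 3 counts, allows a share of up to 27.3%. At 48 h 1 bin was called higher, that from 26.5 to 26.6 Mb, which held 18 peaks at 48 h and 9 in normoxia, where 6.01% of bins over the genome were, and 0 were called lower, where 0.483% were. At 6, 12 and 24 h 0 were called in either direction, where 0.906%, 0.862% and 2.03% of bins were called higher and 0.543%, 0.434% and 0.192% lower.

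Among these 11 bins, the 3 with the highest ratio at 72 h were those from 30.7 to 30.8 Mb, holding 8 peaks at 72 h, against 4 in normoxia (1.53), from 27.8 to 27.9 Mb, with 6 and 3 (1.5), and from 26.3 to 26.4 Mb, with 11 and 6 (1.43). The bin from 27.8 to 27.9 Mb already held 7 peaks at 6 h. The lowest ratio among the 11 was in the densest bin of the region, from 26.2 to 26.3 Mb, holding 21 peaks at 72 h, against 24 in normoxia (0.710). Next came 4 bins with as many peaks at 72 h as in normoxia (0.809 each), from 26.0 to 26.1 Mb (17 peaks), 26.4 to 26.5 Mb (11), 27.1 to 27.2 Mb (7) and 27.7 to 27.8 Mb (10). The first 6 bins of the histone cluster, up to 26.6 Mb, held 94 of its 147 peaks at 72 h and 79 of 121 at 0 h.

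Which peaks were shared between times was compared next. The shares of recurring peaks were lower than over the genome, and the interval for peaks with a 0 h counterpart left out the genome's share at 6, 12, 24 and 48 h but not at 72 h. Of the region's 44 peaks of at least 500 bp at 72 h, 43 overlapped a 0 h peak of any width. That was 97.7% (interval 88.0 to 99.9%), against 94.1% over the genome, which lies inside the interval. Of the 184 peaks at 72 h, 121 overlapped a 0 h peak and 63 did not, so 65.8% were shared (95% Clopper-Pearson interval 58.4 to 72.6%), against 70.3% over the genome, where 29.7% of all 72 h peaks had no 0 h peak. Of the 146 peaks at 0 h, 126 overlapped a 72 h peak, or 86.3% (79.6 to 91.4%), against 89.8% over the genome, where 10.2% lacked one. At 6 h 71.7% of the region's 145 peaks overlapped a 0 h peak (63.7 to 78.9%), against 82.4% over the genome, where 17.6% had none. The shares were 74.0% at 12 h, 67.1% at 24 h and 62.2% for 48 h, where those of the genome were 82.5%, 79.3% and 74.0%. In the MHC blocks 20 of the 37 peaks at 72 h and 20 of the 25 at 0 h had a counterpart at the other time. Peaks of the region without a 0 h counterpart had a median width of 290 bp at 72 h, against 432 bp for those with one.

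Peaks of all lists were merged where they overlapped, which gave 270 regions in the stretch: 204 in the histone cluster, 16 in extended class I, 34 in class I, 5 in class III and 11 in class II. Of the 204, 65 (31.9%, interval 25.5 to 38.7%) had a peak in all 6 lists, and of the 66 in the MHC blocks 8 (12.1%, 5.38 to 22.5%) did, against 46.8% of all 415474 merged regions. On the contigs 15 of 206 did. In 1 list alone were 50 in the histone cluster (24.5%), 23 in the MHC blocks (34.8%) and 83 on the contigs (40.3%), against 17.9% over the genome. Of the 66 in the MHC blocks, 9 (13.6%) were of the 48 h list alone, where 3.44% were over the genome. Likewise 7 (10.6%) were of the 72 h list alone, where 7.13% were, and 5 (7.58%) of the 24 h list alone, where 2.14% were.

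**Figure D4:**
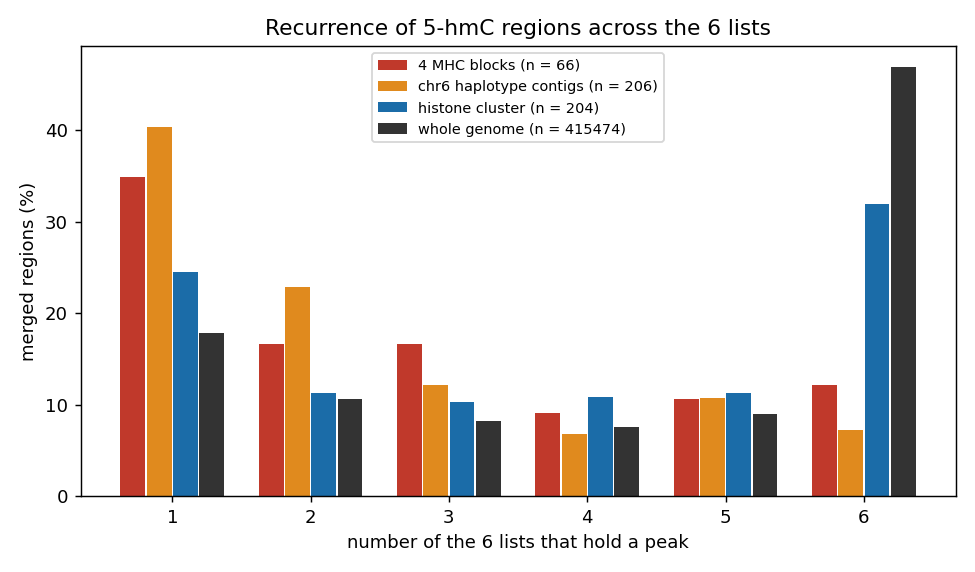
Percent of merged regions by the number of lists that hold a peak there, for the MHC blocks, the contigs, the histone cluster and the genome. The genome peaks at 6 lists with 46.8%, the MHC blocks and contigs at 1 list with 34.8% and 40.3%.

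Between pairs of lists, the Jaccard index (shared over total covered length) ranged from 0.520 to 0.623 in the histone cluster and from 0.303 to 0.456 in the MHC blocks, against 0.606 to 0.706 over the genome. The histone cluster lay below the genome in all 15 pairs and the MHC blocks below the histone cluster in all 15. These pairs share lists, so the counts are a description. In the histone cluster the index was highest between 48 and 72 h (0.623).

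In all 5 hypoxia lists and not at 0 h were 5 merged regions, all in the histone cluster, where 2.99% of merged regions over the genome had this pattern. By width at 72 h the leading one lay at chr6:26540254-26540668, with peaks of 242, 309, 324, 292 and 415 bp from 6 to 72 h. The others lay at chr6:26057435-26057826, chr6:26161376-26161979, chr6:26863378-26863797 and chr6:27841473-27841927. In the MHC blocks 0 of 66 had this pattern, which allows a share of up to 4.55%, taken as 3 counts of the total. At 0 h alone were also 5, where 1.84% were over the genome. A further 22 were in the 72 h list alone (8.15%, against 7.13% over the genome) and 8 in those of 48 and 72 h alone (2.96%, against 3.61%). Present at 72 h and not in normoxia were 61 (22.6%, against 24.3% over the genome), and the reverse held for 19 (7.04%, against 6.41%). The widest of the normoxia-only regions in the histone cluster measured 296 bp (chr6:26035564-26035859), and the only one in the MHC blocks 226 bp (chr6:30746684-30746909), which is the narrowest width of the 0 h list.

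In extended class I, 5 of the 16 merged regions were held by all 6 lists, and they include the widest peak of the MHC blocks. At chr6:28295694-28296802 the peak measured 749, 823, 928, 647, 793 and 1109 bp in time order. Its neighbour at chr6:28278770-28279593 stayed between 625 and 793 bp. The last 2 regions before the empty 1110 kb, at chr6:28573147-28573548 and chr6:28575666-28576097, were absent at 6 h alone.

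In class I, 3 of 34 merged regions were held by all 6 lists. At chr6:30732384-30733414 the widest peak measured 602, 906, 558, 522, 986 and 888 bp in time order. At chr6:30850719-30851736 the peak measured 414 bp at 0 h, 1018, 391, 443 and 383 bp from 12 to 72 h, and at 6 h 2 peaks lay there, the wider of 258 bp. At chr6:29899844-29900241 the width ranged from 260 to 366 bp. Close by, a peak at chr6:29901132-29901493 was present from 12 h on, with 279, 272, 273 and 277 bp from 12 to 72 h. At chr6:30837219-30837585 the peak was 367, 271 and 251 bp wide up to 12 h and was absent from the later lists.

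None of the 5 merged regions of class III was held by more than 3 lists. The single 0 h peak of the block, of 417 bp at chr6:31822675-31823115, recurred at 12 h (268 bp) and 72 h (283 bp). The widest peak measured 439 bp at 6 h at chr6:31868735-31869173, where the 48 h list held 232 bp and the 72 h list 403 bp. All 5 regions had a peak at 72 h, and 1 of them, at chr6:32014754-32014995, was seen at 72 h alone.

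In class II, 6 of the 11 merged regions lay beyond 33.2 Mb, and the widest peak was there. At chr6:33245497-33246146 no peak was listed at 0 or 6 h, and it measured 317, 339, 495 and 493 bp from 12 to 72 h. At chr6:33386840-33387165 a peak was absent at 6 h alone, and measured 279 bp at 72 h, against 226 bp in normoxia. Between 32.5 and 32.7 Mb, chr6:32623702-32624211 had peaks of 289, 403 and 460 bp at 0, 48 and 72 h and none in the other lists.

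**Figure D5:**
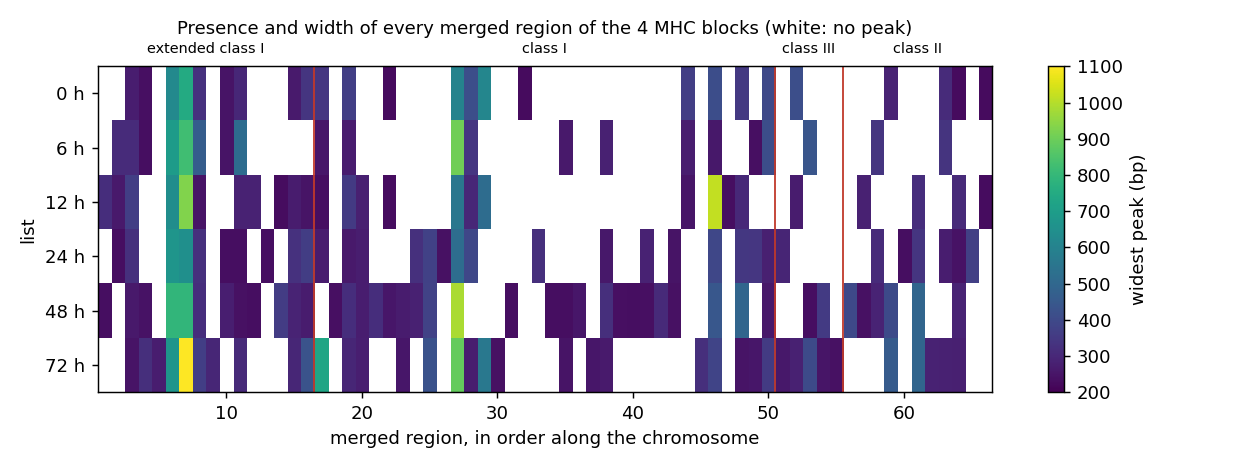
Every merged region of the 4 MHC blocks in order along the chromosome (columns), by list (rows), coloured by the width of its widest peak in bp, with white for no peak. Of the 66 columns, 8 are filled in all 6 rows and 23 in a single row.

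The median peak of the region was narrower than that of the genome in all 6 lists. It measured 353, 359, 343, 330, 342 and 366 bp in time order, where the whole lists had 421 bp at 72 h and 395 bp in normoxia. Peaks of at least 1000 bp numbered 3, 6, 5, 6, 7 and 6 in time order. They made up 3.26% of the region's peaks at 72 h and 2.05% at 0 h, where the whole lists had 8.67% and 7.73%. In the MHC blocks there were 2 in all, 1 at 12 h and 1 at 72 h.

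The broad peaks of the histone cluster recurred at a few places. At chr6:26218112-26219473 the peak measured 1362 bp at 72 h, against 1237 bp in normoxia, and at 12 h alone it was split, the wider part being 624 bp. The widest of the whole region, 1516 bp at 0 h (chr6:26224952-26226467), was 2 peaks covering 1410, 1253 and 1398 bp at 6, 12 and 24 h, and a single peak of 639 bp at 48 h and 694 bp later, at 72 h. Its neighbour at chr6:26232879-26234134 spanned 1061 to 1216 bp up to 48 h and was split at 72 h, the wider part being 655 bp. At chr6:26295864-26297014 a single peak measured 797, 1012, 977, 1111, 1151 and 1075 bp in time order.

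In 59 merged regions with exactly 1 peak in every list, 53 of them in the histone cluster, 41 peaks (69.5%, interval 56.1 to 80.8%) were wider at 72 h than at 0 h and 18 were narrower. Over the genome 71.2% were wider. With each list's narrowest width subtracted, 37 of the 59 were wider (62.7%), against 65.5% over the genome. The median width in the 59 was 464 bp at 72 h, against 409 bp in normoxia. At least doubled in width were 4 (6.78%), all in the histone cluster, where 3.31% were over the genome, and 0 were halved, where 0.284% were. At chr6:26534372-26535365 the width was 391, 308, 350, 346, 378 and 994 bp in time order. At chr6:27783339-27784201 the larger width was there from 6 h, with 267, 818, 744, 806, 663 and 748 bp in time order. The strongest narrowing was at chr6:27110037-27110900, with 723, 816, 708, 690, 572 and 422 bp in time order. Nearby, at chr6:27111426-27112373, the peak measured 761 bp at 72 h, against 278 bp in normoxia.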

How the data were processed

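Each of the 6 deposited lists gives the chromosome, start and end of its peaks and holds no height, fold, p or q. The submitters' processing notes list hg19, BWA 0.7.17, HTSeq and MACS2 but not what each did. Which peak threshold was set, and whether the input served, is not given in the sources used here. The input library was not analysed here. Depth is unknown.

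Peaks were placed by midpoint, block edges following the rule given above. Overlap means at least 1 bp. Relations to hours were tested exactly (two-sided permutation, 720 orders of the 6 lists) and adjusted by Benjamini-Hochberg over 18. The smallest p of a rank test is 0.00278. Shares have 95% Clopper-Pearson intervals, and ratios the interval of the same kind on the share of the pair of lists, all for counting error only; the limit for a count of 0 is 3 counts of the total. Bin ratios have 0.5 added to both numbers. Regions named in the text were, per block, the widest peak of any list and the widest of those gained or lost throughout, with the bins and empty stretches ranked as described; further ones were named after their values were seen. The members, blocks and rules were chosen with earlier results of these data known, and taking the 4 MHC blocks together, the contigs' patterns and the flanks were chosen after the data were seen. Coordinates are hg19 and count from 1. Sequences of the peaks are not printed, and joins of genes to peaks were not made, since no hg19 reference was used. On 39240 simulated peaks, 14 of 14 known quantities were recovered to within 0.5%. The tools were SciPy 1.17.1, pandas 2.3.3, NumPy 2.4.6 and Matplotlib 3.10.9 under Python 3.11.15.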

Additional observations from a re-analysis of the deposited data

How the results depend on the processing

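No paired analysis was possible because each time has 1 library. The rise of peak number with hours in the region and in the histone cluster lost its side of the threshold, by Pearson's r, with peaks of at least 500 bp (r = 0.629 and 0.602). With time rank and no normoxia it did not pass either, although r was no lower (0.948 and 0.934, against 0.912 and 0.916 over 6 lists). The 5 lists left there have fewer orders. The rise turned round with the same number of peaks per list, widest first (-0.85 and -0.71), which takes narrow peaks from the later, longer lists. Covered length lost it under the 500 bp minimum (0.623 in the region and 0.581 in the histone cluster) and with the widest peaks (0.837 and 0.799). With each list left out, r for number ranged from 0.888 to 0.959 in the region and from 0.891 to 0.979 in the histone cluster, and r for covered length from 0.958 to 0.972 and from 0.911 to 0.958. None of these passed, with adjusted p from 0.0643 to 0.169 over these relations; 5 lists leave fewer orders.

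Relations that had not passed also changed sign, and passed in no such case. With the widest peaks rho was -0.75 for number in the region, -0.77 for number in the histone cluster, -0.85 (r) and -0.75 (rho) for the region's share and -0.77 (rho) for that of the histone cluster. In extended class I it gave -0.67 (r) and -0.76 (rho) for number, -0.40 and -0.54 for covered length and -0.76 (rho) for share. In class I it gave -0.66 and -0.64 for number and for share, and -0.46 and -0.43 for covered length. In class III rho for covered length was -0.37, and in class II r for number and share was -0.071. Peaks of at least 500 bp gave -0.35 (r) and -0.086 (rho) for the region's share, -0.025 and -0.14 for that of class I, and in extended class I -0.37 and -0.39 for number and -0.94 (rho) for share. With shares of covered length rho was -0.14 in the histone cluster and -0.20 in extended class I. With shares of chromosome 6 peaks it was -0.66 in the histone cluster and -0.086 in the region and in extended class I. With each list left out, share gave r from -0.23 to 0.26 and rho from -0.20 to 0.50 in the histone cluster, and r from -0.43 to 0.47 and rho from -0.30 to 0.60 in extended class I.

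When both peaks had to be overlapped by 0.5 of their length, 57.1% of 72 h peaks of the region had a 0 h peak, against 62.3% over the genome, and 71.9% of 0 h peaks had a 72 h peak, against 77.0%. Peaks of 500 bp or more, set against peaks of any width in the other list, gave 97.7% and 100%. Over the genome the shares were 94.1% and 99.2%, inside the region's intervals (88.0 to 99.9% and 89.1 to 100%). The widest peaks gave 77.5% and 72.6%, against 79.2% and 82.6%. No bin was called at 72 h as reported; with 6 h in place of 0 h, 1 of 11 was higher (6.83% over the genome), and with the widest peaks 1 of 9 was lower (1.40%). Of the 66 merged regions of peaks of at least 500 bp, 21 were in all 6 lists (31.8%, against 38.6% over the genome). A further 5 were in all 5 hypoxia lists without a 0 h peak of that width (7.58%, against 3.44%). For this pattern the lists as deposited gave 1.85%, against 2.99%. As deposited, these 5 had a peak in all 6 lists, the widest at 0 h measuring 267 to 493 bp. Shorter peaks were dropped from every list here, so absence from a list means no peak of at least 500 bp there. At 0 h alone was 1 (1.52%, against 1.69%), and at 72 h alone were 7 (10.6%, against 9.07%). Of the 220 of the widest peaks, 64 were in all 6 lists (29.1%, against 48.1% over the genome). A further 2 were in all 5 hypoxia lists without 0 h (0.909%, against 2.12%), 9 at 0 h alone (4.09%, against 3.21%) and 5 at 72 h alone (2.27%, against 4.19%). Absence here is from the peaks kept. The median width of all peaks of the region at 72 h minus that at 0 h was 13.5 bp as deposited and -2.5 bp with each list's narrowest width subtracted. In regions with 1 peak in each list the median, without that subtraction, stood at 464 bp at 72 h, against 409 bp in normoxia. The causes were not tested.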

Other observations

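Haplotype contigs of other chromosomes also carried peaks. The contig ctg5_hap1 of chromosome 17 held 139, 145, 148, 159, 179 and 176 peaks in time order (0 to 72 h), more in each list than the 7 contigs of chromosome 6 together. The contig ctg9_hap1 of chromosome 4 held 2, 3, 3, 3, 4 and 4.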
